A study of Mus musculus with 23 samples.

Results

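Collagens are triple-helical proteins that form the fibrils, networks and anchoring structures of the skin. The genes described here are those whose symbol on the array platform reads Col, a number, the letter a and a number. They came to 36 of the 12106 genes named on the array, measured by 53 of its 19645 probe sets. Of these genes, 20 had 1 probe set and 16 had several, and such a gene is represented by its brightest probe set, judged by the mean of the 23 arrays. Values are log2 intensities made with RMA, so a difference of 1 is a doubling, and the level of one gene's probe set cannot be set against that of another. The collagens Col6a4, Col6a5, Col6a6, Col8a2, Col21a1, Col23a1, Col24a1, Col27a1 and Col28a1 had no named probe set and were not analysed here.

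RNA came from whole back skin of CD-1 mice, an outbred stock, all of them adult females. DMSO alone, as solvent control, or 4 mg of AG825 in DMSO was put on the shaved back, and 2 h later the skin received 10 kJ/m2 of mostly UVB light or a sham exposure. AG825 is a tyrphostin that inhibits the kinase activity of Erbb2, a receptor of the epidermal growth factor receptor family. Skin treated with DMSO gave 4 arrays after sham (A to D), 4 at 6 h after UV (C, E, F and G) and 4 at 24 h after UV (A, B, C and E). Skin treated with AG825 gave 4 arrays after sham (B to E), 4 at 6 h (A, B, D and E) and 3 at 24 h (A, B and C). Sham skin was taken at 6 h, so the 24 h groups have no sham of their own time, and the 6 h and 24 h comparisons of each drug share the same sham arrays. Nothing in the labels states that each replicate is its own animal, and the p-values reflect only how much these arrays vary, which may be technical.

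Types I, III and V are the fibril-forming collagens of the dermis, made mainly by fibroblasts. Types XII, XIV and XVI sit on or beside those fibrils, and type VI forms beaded filaments around them. Type IV is the sheet-forming collagen of all basement membranes, under the epidermis, around hair follicles and around blood vessels. Type XVII spans the membrane of basal keratinocytes and type VII forms the fibrils that anchor the basement membrane to the dermis.

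The sequences upstream of 6 of these genes are shown because the genes carry the results below. Col4a5 and Col4a6 lie head to head on chromosome X and both fell after UV, Col1a2 and Col3a1 each varied with Col1a1 from array to array, Col11a1 had the largest fall and Col8a1 rose in 3 UV groups. Each is the 250 bases before 1 annotated start in RefSeq on GRCm38.p6, 5′ to 3′ on the gene's own strand. For Col11a1, Col4a5 and Col4a6 the full extent of the gene in RefSeq reaches into this window. The last bases shown for them thus lie within the annotated gene. Col4a5 is at chrX:141475169-141475418 on the plus strand and Col4a6 at chrX:141474077-141474326 on the minus strand. Col1a2 is at chr6:4505368-4505617, Col3a1 at chr1:45311288-45311537 and Col11a1 at chr3:114030290-114030539, all on the plus strand. Col8a1 is at chr16:57754738-57754987 on the minus strand. Capitals mark matches, on either strand, to TATAAA, to CCAAT and to the GC box GGGCGG.
Col4a5: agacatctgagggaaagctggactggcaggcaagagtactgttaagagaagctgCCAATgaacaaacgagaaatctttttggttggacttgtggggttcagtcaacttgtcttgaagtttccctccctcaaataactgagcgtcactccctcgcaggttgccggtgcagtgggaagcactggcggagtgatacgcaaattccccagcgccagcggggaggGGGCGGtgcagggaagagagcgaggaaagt
Col4a6: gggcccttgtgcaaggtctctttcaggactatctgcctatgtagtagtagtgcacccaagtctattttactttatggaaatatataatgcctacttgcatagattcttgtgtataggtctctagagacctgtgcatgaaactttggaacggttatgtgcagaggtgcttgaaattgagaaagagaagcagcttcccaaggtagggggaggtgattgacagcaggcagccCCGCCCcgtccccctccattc
Col1a2: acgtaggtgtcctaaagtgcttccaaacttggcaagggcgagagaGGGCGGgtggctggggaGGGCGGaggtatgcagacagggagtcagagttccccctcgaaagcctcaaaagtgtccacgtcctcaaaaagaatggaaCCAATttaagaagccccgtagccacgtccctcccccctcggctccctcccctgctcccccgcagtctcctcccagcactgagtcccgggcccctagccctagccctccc
Col3a1: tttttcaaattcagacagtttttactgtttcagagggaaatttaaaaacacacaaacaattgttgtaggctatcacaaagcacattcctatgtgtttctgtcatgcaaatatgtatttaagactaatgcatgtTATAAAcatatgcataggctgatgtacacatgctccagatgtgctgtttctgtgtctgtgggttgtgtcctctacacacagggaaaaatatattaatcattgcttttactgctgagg
Col11a1: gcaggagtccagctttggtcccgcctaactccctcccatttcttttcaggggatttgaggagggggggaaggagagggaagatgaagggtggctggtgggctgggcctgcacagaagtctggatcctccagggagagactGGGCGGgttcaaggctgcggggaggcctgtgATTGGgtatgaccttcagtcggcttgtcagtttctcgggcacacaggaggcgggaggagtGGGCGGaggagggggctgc
Col8a1: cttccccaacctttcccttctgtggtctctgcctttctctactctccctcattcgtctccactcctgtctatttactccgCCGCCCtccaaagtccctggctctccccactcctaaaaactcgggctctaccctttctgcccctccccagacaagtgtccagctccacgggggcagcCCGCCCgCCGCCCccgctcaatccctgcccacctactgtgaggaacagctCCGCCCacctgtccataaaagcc
The starts used here for Col4a5 and Col4a6 are 1343 bases apart. Those for Col4a1 and Col4a2, another pair of type IV genes, are 21 bases apart on opposite strands of chromosome 8. The full extents of Col4a1 and Col4a2 in RefSeq overlap. GGGCGG was in the window of 15 of the 27 collagen genes that the promoter table holds, against 32.7% of all 32851 promoters in the table. CCAAT was in the window of 12 of the 27, against 33.9%, and TATAAA in that of 5, against 12.4%. TGANTCA, the letters of an AP-1 site, was in 1 of the 27 and in 6.75% of all promoters. These collagen counts are per gene, while the shares are per promoter. Of the 30 promoters of the 27 genes, GGGCGG was in 16, CCAAT in 12, TATAAA in 5 and TGANTCA in 1. A match describes the letters of a window and is not a measured binding site.

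Across the series, between 62.3% and 71.5% of probe sets were called present per array by the dChip software, and the 3 lowest arrays were DMSO 6 h E and F and AG825 6 h A. By the probe set that represents each gene, 18 of the 36 collagen genes were called present on all 23 arrays by dChip and on all 22 arrays that the GCOS software summarised. They were Col1a1, Col1a2, Col3a1, Col5a1, Col5a2, Col5a3, Col4a1, Col4a2, Col4a5, Col6a1, Col6a2, Col6a3, Col7a1, Col14a1, Col15a1, Col16a1, Col17a1 and Col18a1. A further 10 were present on no array by either program in that probe set, among them the cartilage collagens Col2a1, Col9a2, Col9a3 and Col10a1, and the other 8 were called present on some arrays by dChip. Of 5 genes listed as cartilage markers, none was present on all arrays, and only Cnmd was absent on all 23. Of the 5, 1 fell at 6 h in DMSO skin, beside 10.7% of all probe sets.

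UV changed a minority of the collagen genes, in both directions. In DMSO skin at 6 h, Col14a1 and Col8a1 rose and Col11a1, Col16a1 and Col4a5 fell, 13.9% of the 36 genes. Over all probe sets 18.4% passed in that comparison, 7.77% rising and 10.7% falling. At 24 h Col8a1 and Col4a1 rose and Col11a1, Col17a1, Col4a5, Col7a1 and Col4a6 fell, 19.4% of the collagen genes beside 8.72% of all probe sets, of which 4.89% rose and 3.83% fell. In AG825 skin at 6 h Col8a1 rose and Col11a1 and Col17a1 fell, 8.33% of the collagen genes beside 2.73% of all probe sets (1.48% rising and 1.26% falling). At 24 h Col4a6 fell, 2.78% of the collagen genes beside 4.85% of all (3.35% rising and 1.49% falling). A gene passed at an adjusted p under 0.05 in limma's moderated test over all 19645 probe sets (Benjamini-Hochberg). The split between directions moved with the summary of the arrays: on dChip signal 4 collagen genes rose and 1 fell at 6 h in DMSO skin, and 4 rose and 2 fell at 24 h, while on GCOS signal 2 rose and 5 fell at 6 h and 1 rose and 2 fell at 24 h.

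**Figure D1:**
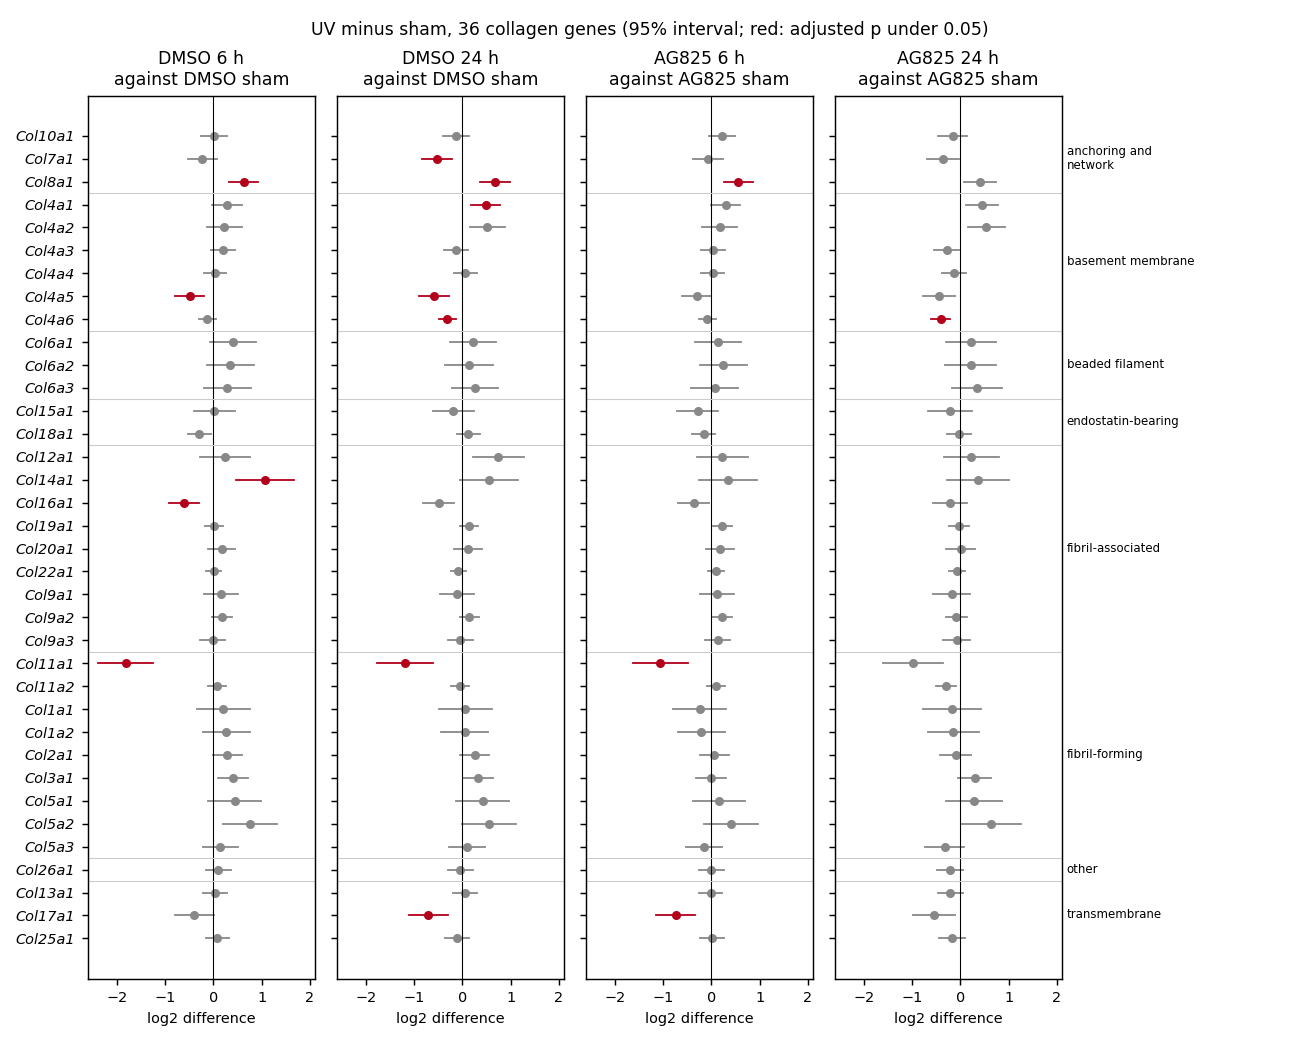
Log2 difference between UV and sham for the 36 collagen genes in the 4 UV comparisons, with 95% intervals from limma (horizontal axis: log2 difference; rows: genes, grouped by collagen class). Red marks the genes that passed; Col11a1 lies farthest to the left in each panel, at -1.82, -1.19, -1.05 and -0.98, and the last of these did not pass.

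The arrays of UV and sham skin did not overlap for 10 of the 36 genes at 6 h in DMSO skin and for 6 at 24 h, beside 18.7% and 14% of all probe sets. In AG825 skin they did not overlap for 5 genes at 6 h and for 7 at 24 h, beside 8.56% and 21.4% of all probe sets. The median difference of the 36 genes with DMSO was 0.15 at 6 h and 0.06 at 24 h, where the median of all probe sets was 0.01 and -0.03. In AG825 skin it was 0.06 and -0.12, with 0.03 and -0.08 over all probe sets. At an unadjusted p under 0.05 there were 8 and 11 collagen genes at 6 h and 24 h in DMSO skin, beside 31.3% and 20.2% of all probe sets, and 7 and 11 in AG825 skin, beside 15.2% and 20.6%.

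The main chains of the dermal fibrils did not pass in any UV comparison. Col1a1 and Col1a2 encode the chains of type I collagen, the bulk of the dermis. Col1a1 read 12.63, 12.40, 12.69 and 12.87 after DMSO sham and 12.96, 12.73, 12.81 and 12.89 at 6 h. At 24 h it read 12.36, 12.89, 12.05 and 13.54, the widest spread of its 6 groups. The groups overlap at both times, and the differences from sham were 0.20 ± 0.26 (SE, 95% interval -0.35 to 0.75) at 6 h and 0.06 ± 0.26 (-0.49 to 0.61) at 24 h, with limma adjusted p of 0.64 and 0.95. Col1a2 differed by 0.27 ± 0.24 and 0.05 ± 0.24 (adjusted p 0.46 and 0.96).

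Col3a1, the chain of type III collagen, read 13.09, 12.88, 13.13 and 13.25 after DMSO sham and 13.53, 13.43, 13.38 and 13.66 at 6 h. All 4 UV arrays were above all 4 sham arrays, and the difference of 0.41 ± 0.15 missed the threshold (adjusted p 0.067). Col5a2, a chain of type V collagen, which nucleates the type I fibril, read 11.27, 10.81, 11.17 and 11.38 after sham and 11.96, 11.50, 12.26 and 11.92 at 6 h. Its groups did not overlap either, and its difference was 0.75 ± 0.27 (adjusted p 0.057). On dChip signal both genes passed at 6 h, with 0.48 (adjusted p 0.015) for Col3a1 and 0.82 (adjusted p 0.040) for Col5a2. The second probe set of Col5a2 did not show the difference (-0.06 ± 0.23), while that of Col3a1 read 0.63 ± 0.26 (adjusted p 0.099). Col5a1 differed by 0.44 ± 0.26, again with no overlap (adjusted p 0.26).

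The type VI genes, Col6a1, Col6a2 and Col6a3, did not pass in any UV comparison. Col6a1 read 11.10, 10.92, 10.95 and 10.98 after DMSO sham and 11.55, 11.29, 11.39 and 11.33 at 6 h, a difference of 0.40 ± 0.23 (adjusted p 0.24) with no overlap. Col6a2 differed by 0.35 ± 0.24, with no overlap, and Col6a3 by 0.28 ± 0.23 (adjusted p 0.33 and 0.43). In DMSO skin at 24 h the 3 genes differed by 0.13 to 0.26.

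A pair of arrays set much of the spread of the dermal genes at 24 h. On DMSO 24 h E, Col1a1, Col1a2, Col3a1, Col5a1, Col5a2, Col6a1 and Col6a2 had their highest value of all 23 arrays, and on DMSO 24 h C all of these were the lowest of their group. The second probe set of Col1a1 was not highest on DMSO 24 h E. It read 12.22 there, 12.51 on DMSO sham A and 12.25 on AG825 6 h A. Those of Col1a2, Col3a1 and Col5a2 were highest on DMSO 24 h E. The mean of the 6 fibril-forming genes present on all arrays, each centred over the arrays, was 0.79 on DMSO 24 h E and -0.57 on DMSO 24 h C, against -0.31 to 0.00 in the 4 DMSO sham arrays and 0.08 to 0.32 at 6 h. AG825 6 h A was also low, at -0.42. Without DMSO 24 h C, 11 collagen genes passed at 24 h in DMSO skin in place of 7, with Col3a1 (0.52) and Col5a2 (0.84) among them. Of all 19645 probe sets, 1111 rose and 823 fell without that array, in place of 961 and 753. In whole skin, more fibroblasts in the sample and more collagen RNA per fibroblast cannot be told apart. The 10 fibroblast markers measured had an array mean between 9.83 and 10.1 after DMSO sham, 10.5 to 10.8 at 6 h and 10.0 to 11.0 at 24 h. The part of these markers in the collagen values was not tested.

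**Figure D2:**
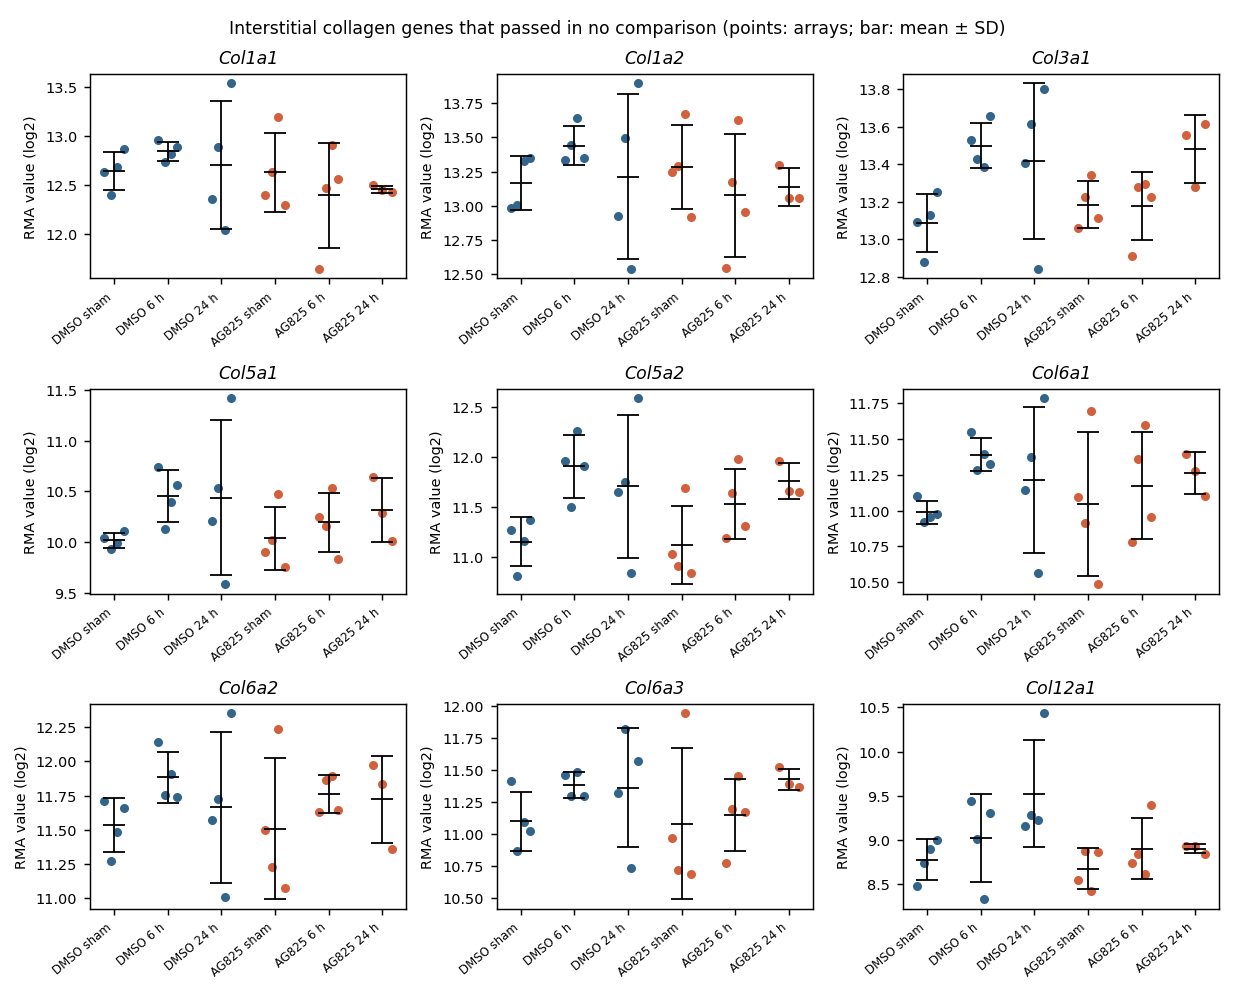
RMA log2 value of 9 interstitial collagen genes on each of the 23 arrays (vertical axis) in the 6 groups (horizontal axis; blue DMSO, orange AG825), with the mean ± SD of each group. For Col3a1, Col5a1, Col5a2, Col6a1 and Col6a2 the 4 DMSO 6 h arrays lie above the 4 DMSO sham arrays, and the DMSO 24 h arrays of Col1a1 have the widest spread of its 6 groups.

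Col11a1 had the largest fall of the family in DMSO skin. It encodes a minor fibril-forming chain of type XI collagen, best known from cartilage. It read 8.56, 7.89, 8.55 and 8.68 after DMSO sham and 6.90, 6.34, 6.26 and 6.92 at 6 h, when dChip called it present on 2 of the 4 arrays. At 24 h it read 6.69, 7.90, 7.12 and 7.22. The groups did not overlap at 6 h, when it fell by 1.82 ± 0.28 on the log2 scale, 3.52-fold (limma adjusted p 0.00012). At 24 h DMSO 24 h B just overlapped the lowest sham array, and the gene fell by 1.19 ± 0.28, 2.28-fold (adjusted p 0.0083). The call at 6 h held in all 23 fits with 1 array left out and under all 10 other settings, and that at 24 h held without each array and was lost on GCOS signal.

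In AG825 skin Col11a1 read 7.40, 8.06, 8.70 and 7.89 after sham, 6.66, 7.01, 7.04 and 7.14 at 6 h and 6.53, 7.03 and 7.55 at 24 h. It fell by 1.05 ± 0.28 at 6 h (adjusted p 0.042), with no overlap. At 24 h the difference of -0.98 ± 0.30 did not pass (adjusted p 0.063). The 6 h call was lost without DMSO sham C, AG825 sham C, D or E, any of the 4 AG825 6 h arrays or AG825 24 h B, with adjusted p from 0.052 to 0.13 where it was lost. Of the 10 other settings it held under 2 (adjusted p up to 0.15 where lost). Its second probe set fell too in DMSO skin, by 1.46 ± 0.29 at 6 h and 1.01 ± 0.29 at 24 h (adjusted p 0.0014 and 0.034), and read -0.89 ± 0.29 at 6 h in AG825 skin (adjusted p 0.12). The partner chain Col11a2, called present on 11 arrays, in DMSO skin differed by 0.07 ± 0.09 at 6 h and -0.04 ± 0.09 at 24 h.

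Markers of the hair shaft and growing follicle were lower after UV in DMSO skin. Of the 12 measured, 11 fell at 6 h in DMSO skin and 4 at 24 h, beside 10.7% and 3.83% of all probe sets. In AG825 skin none fell at 6 h and 1 fell at 24 h, beside 1.26% and 1.49%. The array mean of the 12 markers ranged from 10.2 to 10.7 after DMSO sham and from 6.46 to 8.83 at 6 h. At 24 h it ranged from 8.0 on array E to 10.1 on array C. In AG825 skin it ranged from 9.31 to 10.6 after sham and 9.05 to 9.63 at 24 h. At 6 h it was 9.67, 9.77, 7.87 and 10.3 on AG825 arrays A, B, D and E. Only D lay below the sham range of the markers, while Col11a1 lay below its sham range on each of these arrays. Shh was absent on all arrays, and 3 of the 12 were present on all. Their part in the fall of Col11a1 was not tested.

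Among the fibril-associated collagens, Col14a1 rose and Col16a1 fell at 6 h in DMSO skin. Type XIV collagen binds the surface of type I fibrils. Col14a1 read 8.53, 8.35, 8.58 and 8.73 after DMSO sham and 9.42, 9.87, 9.93 and 9.28 at 6 h. The UV arrays all lie above the sham arrays, and the gene rose by 1.08 ± 0.29, 2.11-fold (limma adjusted p 0.012). At 24 h it read 8.96, 9.32, 8.38 and 9.71, overlapping sham, a difference of 0.55 ± 0.29 (adjusted p 0.31). In AG825 skin it read 8.44, 8.37, 9.48 and 8.57 after sham and 8.59, 9.04, 9.90 and 8.71 at 6 h, which overlap (0.35 ± 0.29, adjusted p 0.60).

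Col16a1, whose product links fibrils and basement membranes to cells, read 9.76, 9.77, 9.60 and 9.42 after DMSO sham. At 6 h it read 9.47 on array C and 8.89, 8.89 and 8.88 on E, F and G. Array C overlaps sham and the others lie clearly below, and the gene fell by 0.61 ± 0.15 (adjusted p 0.0082). At 24 h it read 8.81, 9.39, 9.29 and 9.10, below all sham arrays, and -0.49 ± 0.15 lay just past the threshold (adjusted p 0.0501). The 6 h calls of Col14a1 and Col16a1 held without each single array. Both were lost with the percent of probe sets called present as a covariate and without the 3 arrays lowest in it, of which 2 are DMSO 6 h arrays. Col16a1 was lost on dChip signal too (adjusted p 0.13), and with the replicate letter as a block. Differences over all settings were at least 0.77 for Col14a1 and at most -0.46 for Col16a1. The second probe set of Col14a1 differed by 0.46 ± 0.18 at 6 h, with no overlap (adjusted p 0.083).

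Col12a1, whose product also lines fibrils, was called present on 17 arrays. It read 8.48, 8.74, 8.90 and 9.0 after DMSO sham and 9.16, 9.28, 9.22 and 10.43 at 24 h, with DMSO 24 h E far above the rest. The groups did not overlap, and the difference of 0.75 ± 0.25 missed the threshold (adjusted p 0.073). The other fibril-associated genes, Col9a1, Col9a2, Col9a3, Col19a1, Col20a1 and Col22a1, had a brightest probe set that was present on at most 3 arrays, and its differences in DMSO skin lay between -0.11 and 0.17. The second probe set of Col9a1, of lower mean, was called present on all 23 arrays and fell by 0.38 ± 0.09 at 24 h in AG825 skin (limma adjusted p 0.017).

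The 6 chains of type IV collagen divided. Col4a1 and Col4a2, which pair in most basement membranes including those of vessels, were higher after UV. Col4a1 read 11.40, 11.02, 11.17 and 11.13 after DMSO sham, 11.55, 11.12, 11.25 and 11.93 at 6 h and 11.84, 11.68, 11.35 and 11.78 at 24 h. One 24 h array overlaps the highest sham array, and the gene rose by 0.48 ± 0.15 at 24 h, 1.40-fold (limma adjusted p 0.043). Col4a2 read 10.48, 10.38, 10.38 and 10.15 after sham and 10.97, 10.96, 10.43 and 11.09 at 24 h, a difference of 0.52 ± 0.17 that missed the threshold (adjusted p 0.069). In AG825 skin at 24 h both lay above all sham arrays, by 0.44 ± 0.16 and 0.54 ± 0.19, and did not pass (adjusted p 0.12 and 0.11).

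The call for Col4a1 was close to the threshold. It was lost on GCOS signal (adjusted p up to 0.11) and without DMSO sham B, C or D, DMSO 24 h A, B or E, AG825 sham C or E, AG825 6 h B, or AG825 24 h A or C, with adjusted p from 0.0502 to 0.15. The second probe set of Col4a1 read 0.47 ± 0.15 at 24 h in DMSO skin, with no overlap (adjusted p 0.058). In AG825 skin that probe set read 10.57, 11.00, 10.70 and 10.87 after sham and 11.01, 10.99 and 11.00 at 24 h, which overlap. Endothelial markers rose after UV, 7 of 8 at 6 h and 7 of 8 at 24 h with DMSO, beside 7.77% and 4.89% of all probe sets. In AG825 skin 1 and 2 of 8 rose, beside 1.48% and 3.35%. The array mean of the 8 markers ranged from 7.40 to 7.67 after DMSO sham, 8.20 to 8.56 at 6 h and 7.89 to 8.73 at 24 h. The part of these markers in the Col4a1 values was not tested.

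Col4a5 and Col4a6, which form the other type IV network of the epidermal basement membrane, fell. Col4a5 read 7.09, 6.73, 7.02 and 7.06 after DMSO sham, 6.13, 6.97, 6.48 and 6.35 at 6 h and 6.28, 6.44, 6.44 and 6.38 at 24 h. At 6 h array E stays within the sham range, and the gene fell by 0.49 ± 0.15 (adjusted p 0.022). At 24 h there was no overlap and it fell by 0.59 ± 0.15 (adjusted p 0.013). The second probe set fell further, by 1.15 ± 0.21 and 1.02 ± 0.21 (adjusted p 0.00075 and 0.0038), without overlap at either time. In AG825 skin the first probe set differed by -0.30 ± 0.15 at 6 h and -0.44 ± 0.16 at 24 h (adjusted p 0.33 and 0.12). The second read 6.69, 6.89, 6.71 and 6.64 after AG825 sham and 6.02, 6.11, 6.21 and 6.02 at 6 h. At 24 h it read 5.77, 5.71 and 6.51, with no overlap at either time. For the mean of its probe sets, Col4a5 passed at 24 h in AG825 skin (-0.59, limma adjusted p 0.022). It passed there too on GCOS signal, with array weights and without the 3 arrays of lowest percent present, but under no other setting.

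Col4a6 read 7.58, 7.52, 7.61 and 7.51 after DMSO sham, 7.43, 7.33, 7.40 and 7.57 at 6 h and 7.10, 7.17, 7.37 and 7.33 at 24 h. The 24 h arrays all lie below sham, and the gene fell by 0.31 ± 0.09 (adjusted p 0.024). In AG825 skin it read 7.51, 7.61, 7.35 and 7.34 after sham and 6.98, 7.03 and 7.13 at 24 h, again with no overlap, and fell by 0.41 ± 0.09 (adjusted p 0.013). Its second probe set, which dChip called present on only 2 arrays, fell by 0.38 ± 0.10 and 0.41 ± 0.11 in those 2 comparisons (adjusted p 0.023 and 0.036). On dChip signal the difference in DMSO skin at 24 h had the other sign (0.08, adjusted p 0.88). The Col4a6 values are low, with dChip calling the first probe set present on 15 arrays and GCOS on 2. Its call in DMSO skin was lost without DMSO sham A or C or DMSO 24 h A or B (adjusted p 0.062 to 0.10), and that in AG825 skin without AG825 sham C or AG825 24 h A or B (0.0502 to 0.096). On dChip signal the AG825 difference was -0.25 (adjusted p 0.45), and with only the groups compared both calls were lost (adjusted p 0.070 and 0.061). The 6 h call of Col4a5 was lost without DMSO sham A or C or DMSO 6 h C or G (0.055 to 0.071), and on dChip signal both its calls were lost (adjusted p 0.091 at 6 h and 0.27 at 24 h). The 6 h call of Col4a5 was also lost with only the groups compared (adjusted p 0.091) and with the replicate letter as a block.

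Col4a3, which dChip called present on 16 arrays and GCOS on none, and Col4a4, present on none, differed by -0.13 to 0.20 and 0.03 to 0.06 in DMSO skin. Of the endostatin-bearing collagens of vessel and epithelial basement membranes, Col18a1 with DMSO differed by -0.29 ± 0.11 at 6 h and 0.12 ± 0.11 at 24 h (adjusted p 0.079 and 0.68). Col15a1 differed by 0.02 ± 0.20 and -0.19 ± 0.20 (adjusted p 0.96 and 0.72).

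The epidermal junction collagens fell in DMSO skin at 24 h. Col17a1, the hemidesmosomal collagen of basal keratinocytes, read 11.30, 11.53, 11.34 and 11.21 after DMSO sham, 10.91, 10.94, 10.62 and 11.34 at 6 h and 10.53, 10.94, 10.98 and 10.11 at 24 h. The 24 h arrays lie below all sham arrays, and the gene fell by 0.70 ± 0.20, 1.63-fold (limma adjusted p 0.026). At 6 h array G stayed within the sham range and -0.39 ± 0.20 did not pass (adjusted p 0.18). In AG825 skin it read 11.68, 11.58, 11.90 and 11.20 after sham, 10.54, 11.17, 11.15 and 10.55 at 6 h and 10.94, 11.08 and 11.10 at 24 h, with all UV arrays below sham. It fell by 0.74 ± 0.20 at 6 h (adjusted p 0.045) and differed by -0.55 ± 0.21 at 24 h (adjusted p 0.15).

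Col7a1, the anchoring fibril collagen, read 9.36, 9.34, 9.10 and 9.02 after DMSO sham and 8.32, 8.64, 8.65 and 9.09 at 24 h. One 24 h array lies within the sham range, and the gene fell by 0.53 ± 0.15 (adjusted p 0.027). In AG825 skin at 24 h it differed by -0.37 ± 0.16 (adjusted p 0.19). The Col7a1 call was lost without DMSO sham A or B or DMSO 24 h A or B (adjusted p 0.058 to 0.13) and with only the groups compared (0.077). On dChip signal the difference was -0.09 (adjusted p 0.83), and on GCOS signal it was -0.48 and -0.49 (adjusted p 0.20 and 0.21). The Col17a1 call at 24 h was lost on GCOS signal and without DMSO sham A, B or C or DMSO 24 h A or E (0.053 to 0.13). Its AG825 call at 6 h was lost without any of the 4 DMSO sham arrays, DMSO 6 h C or E, DMSO 24 h A, AG825 sham B, C or D, AG825 6 h A, D or E or any of the 3 AG825 24 h arrays (0.051 to 0.13), and under 7 of the 10 other settings (up to 0.31).

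Markers of basal keratinocytes were lower at 6 h in DMSO skin, where 3 of the 8 fell, and 1 of 8 fell at 24 h. Their array mean ranged from 10.9 to 11.1 after DMSO sham, 10.3 to 10.8 at 6 h and 10.5 to 11.2 at 24 h. None of the 8 passed in AG825 skin. Of 5 suprabasal keratinocyte markers, 5 fell at 24 h in DMSO skin (median -1.23) and 2 in AG825 skin (median -1.11), and 1 fell at 6 h with either drug. Beside both lists, 10.7% and 3.83% of all probe sets fell at 6 h and 24 h in DMSO skin. In AG825 skin 1.26% and 1.49% did. The array mean of the suprabasal markers ranged from 10.6 to 12.1 after DMSO sham, 9.74 to 10.4 at 24 h with DMSO, 11.1 to 11.9 after AG825 sham and 9.97 to 10.7 at 24 h with AG825. All 8 basal markers were present on every array and 4 of the 5 suprabasal ones, and the part of both lists in the falls of Col17a1 and Col7a1 was not tested.

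Col8a1 rose at both times in DMSO skin. It encodes a short-chain network collagen best known from vessel walls and the cornea. It was called absent on all 8 sham arrays of both drugs and present on 2 of 4, 4 of 4, 3 of 4 and 3 of 3 arrays at DMSO 6 h, DMSO 24 h, AG825 6 h and AG825 24 h. The values were 6.92, 6.92, 6.58 and 6.96 after DMSO sham, 7.46, 7.44, 7.14 and 7.85 at 6 h and 7.43, 7.36, 7.35 and 7.96 at 24 h. No UV array overlaps sham, and Col8a1 rose by 0.63 at 6 h and 0.68 at 24 h, 1.54-fold and 1.60-fold (limma adjusted p 0.0044 and 0.0045). Under the 10 other settings the difference lay between 0.41 and 1.05 at 6 h and between 0.50 and 1.39 at 24 h. Sham lies at background, so these folds are approximate and may understate the rise. Raising each sham value to the lowest value called present on its array did not change these folds.

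In AG825 skin Col8a1 read 7.12, 6.83, 6.78 and 6.91 after sham, 7.31, 7.41, 7.63 and 7.50 at 6 h and 7.37, 7.39 and 7.19 at 24 h, with no overlap at either time. It rose 1.47-fold at 6 h (limma adjusted p 0.042), and at 24 h the 1.33-fold difference did not pass (adjusted p 0.15). Both DMSO calls held without each array and under all 10 other settings. The AG825 call was lost without DMSO sham B, AG825 sham C, D or E, AG825 6 h B, D or E or AG825 24 h A or B (adjusted p 0.052 to 0.14). It was lost on dChip and GCOS signal too. The second Col8a1 probe set was called absent on all arrays. Col10a1, a related network collagen, was absent on all arrays, and so were Col25a1 and Col26a1. Col13a1, a transmembrane collagen present on 6 arrays, differed by 0.03 ± 0.12 and 0.06 ± 0.12 in DMSO skin.

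**Figure D3:**
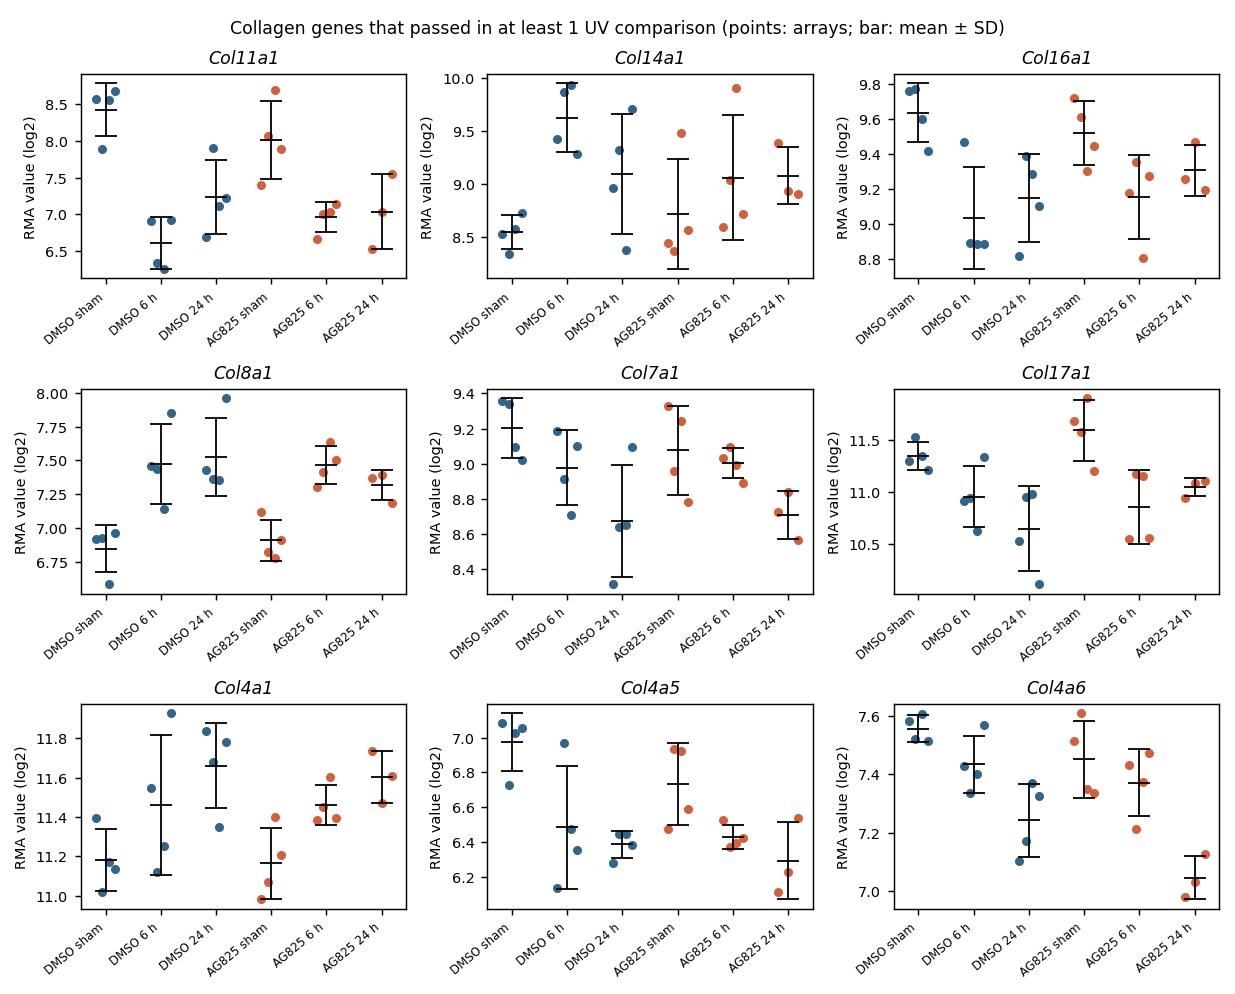
RMA log2 value on each of the 23 arrays (vertical axis) in the 6 groups (horizontal axis; blue DMSO, orange AG825) for the 9 collagen genes that passed in at least 1 UV comparison, with the mean ± SD of each group. Col11a1 falls from 8.42 after DMSO sham to 6.61 at 6 h and 7.23 at 24 h, and all UV arrays of Col8a1 lie above all sham arrays of the same drug.

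Between the times, no collagen gene passed in limma at 24 h against 6 h, in DMSO or in AG825 skin, where 0.0458% (0.0255% rising, 0.0204% falling) and 0.229% (0.163% rising, 0.0662% falling) of all probe sets did. At an unadjusted p under 0.05 there were 4 collagen genes in DMSO skin and 6 in AG825 skin, beside 13.6% and 25.2% of all probe sets. The 2 times did not overlap for 0 collagen genes in DMSO skin and 8 in AG825 skin, beside 5.57% and 26.2%. Col18a1 had the smallest p in DMSO skin, with 0.41 ± 0.11 (adjusted p 0.15), and Col11a2 in AG825 skin, with -0.38 ± 0.10 (adjusted p 0.081). Col11a1 was higher at 24 h than at 6 h in DMSO skin by 0.63 ± 0.28 (adjusted p 0.33).

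The comparison of AG825 with DMSO asks whether the inhibitor altered the collagen genes. No collagen gene passed in limma after sham, at 6 h or at 24 h, where 0% of all probe sets passed in each. At an unadjusted p under 0.05 there were 0, 2 and 2 collagen genes, beside 0.982%, 7.2% and 10.6% of all probe sets. At 6 h, 15 of the 18 collagen genes present on all arrays were lower with AG825, with a median difference of -0.21 beside -0.00 over all probe sets. Over all 36 genes 25 were lower, with a median of -0.08. The 10 fibroblast markers had a median difference of -0.38 in the same comparison, with none passing, and their array mean was 9.79 on AG825 6 h A and 10.1 to 10.8 on the other AG825 6 h arrays, against 10.5 to 10.8 with DMSO. Their part in the collagen values was not tested. After sham 9 of the 18 collagen genes present on all arrays were lower, with a median of 0.00, and at 24 h 10 of 18, with a median of -0.01. Col3a1 read 13.53, 13.43, 13.38 and 13.66 at 6 h with DMSO and 12.91, 13.28, 13.30 and 13.22 with AG825, which do not overlap, as was so for 1 of the 36 genes and 2.04% of all probe sets. Its difference was -0.32 ± 0.15 (95% interval -0.64 to -0.00, adjusted p 0.68).

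Other dermal genes at 6 h had intervals that span 0. The AG825 minus DMSO difference was -0.45 (95% interval -1.0 to 0.10) for Col1a1, -0.36 (-0.86 to 0.13) for Col1a2, -0.38 (-0.94 to 0.18) for Col5a2 and -0.56 (-1.16 to 0.04) for Col14a1. At 24 h Col12a1 lay lower with AG825, without overlap, with a difference of -0.62 (-1.19 to -0.06, adjusted p 0.46), 1 of 3 collagen genes without overlap there, beside 16.1% of all probe sets. For Col17a1 the difference at 24 h was 0.40 (-0.04 to 0.84), and for Col8a1 it was -0.01 (-0.31 to 0.29) at 6 h and -0.21 (-0.54 to 0.12) at 24 h.

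The interaction asks whether the UV change itself differed between the drugs. No collagen gene passed in limma at 6 h or 24 h, where 0% and 0.00509% of all probe sets did, and none had an unadjusted p under 0.05, beside 6.15% and 5.34% of all probe sets. The largest at 6 h were Col11a1, with a fall smaller by 0.76 in AG825 skin (95% interval -0.05 to 1.57, adjusted p 0.85), and Col14a1, with a rise smaller with AG825 (-0.73, interval -1.58 to 0.12, adjusted p 0.86). For Col3a1 the interaction was -0.42 (-0.87 to 0.03) at 6 h.

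Chains that assemble together varied together from array to array. The group mean of each gene was subtracted, and the deviations of the 23 arrays were compared for 7 pairs, with 100000 permutations of arrays within groups and Benjamini-Hochberg adjustment over the pairs. Col1a1 and Col1a2, which share a trimer, had Pearson's r = 0.92 (permutation p 0.00025, adjusted 0.00035) and Spearman's rho = 0.75 (adjusted 0.0047). Among all 19644 other probe sets, Col1a2 was the closest to Col1a1, while Col1a1 ranked 3 for Col1a2, after Mmp2 and Thbs2. Col6a1 and Col6a2 had r = 0.91 and rho = 0.90 (permutation p 1e-05 each, the smallest these permutations can give, adjusted 7e-05), and each ranked second for the other.

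Col5a1 with Col5a2 had r = 0.88 (permutation p 0.00020, adjusted 0.00035) and rho = 0.75 (adjusted 0.00064). Col6a1 with Col6a3 had r = 0.86 (permutation p 0.00023, adjusted 0.00035) and rho = 0.82 (adjusted 7e-05), and Col6a1 was the closest of all probe sets to Col6a3. Col1a1 with Col3a1, which share fibrils but no trimer, had r = 0.83 (permutation p 4e-05, adjusted 0.00014) and rho = 0.85 (adjusted 0.00021). Col4a1 with Col4a2 had r = 0.72 (permutation p 0.00085, adjusted 0.00099) and rho = 0.78 (adjusted 0.00059). Many other genes varied as closely. Col5a2 ranked 4 for Col5a1 and Col5a1 ranked 15 for Col5a2, while Col6a3 ranked 13 for Col6a1. Col3a1 ranked 23 for Col1a1 and Col1a1 ranked 2 for Col3a1. Col4a2 ranked 4 for Col4a1 and Col4a1 ranked 11 for Col4a2. The closest to Col6a1 was Gpx7.

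Some of this rests on single arrays, which also set the spread of the dermal genes. Without the 2 arrays farthest from the median of the first gene, r was 0.87 for Col1a1 with Col1a2 and 0.77 for Col1a1 with Col3a1. It was 0.72 for Col5a1 with Col5a2, 0.65 for Col4a1 with Col4a2, 0.85 for Col6a1 with Col6a2 and 0.77 for Col6a1 with Col6a3. Col7a1 and Col17a1, both of the epidermal junction but of separate trimers, had r = 0.19 (permutation p 0.52, adjusted 0.52) and rho = 0.31 (adjusted 0.23). That value turned on DMSO 24 h E, without which r was 0.65. Probe sets of one array share its hybridisation and its mix of tissue, and over all probe sets the 95th percentile of r lay between 0.37 and 0.59 for these genes.

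**Figure D4:**
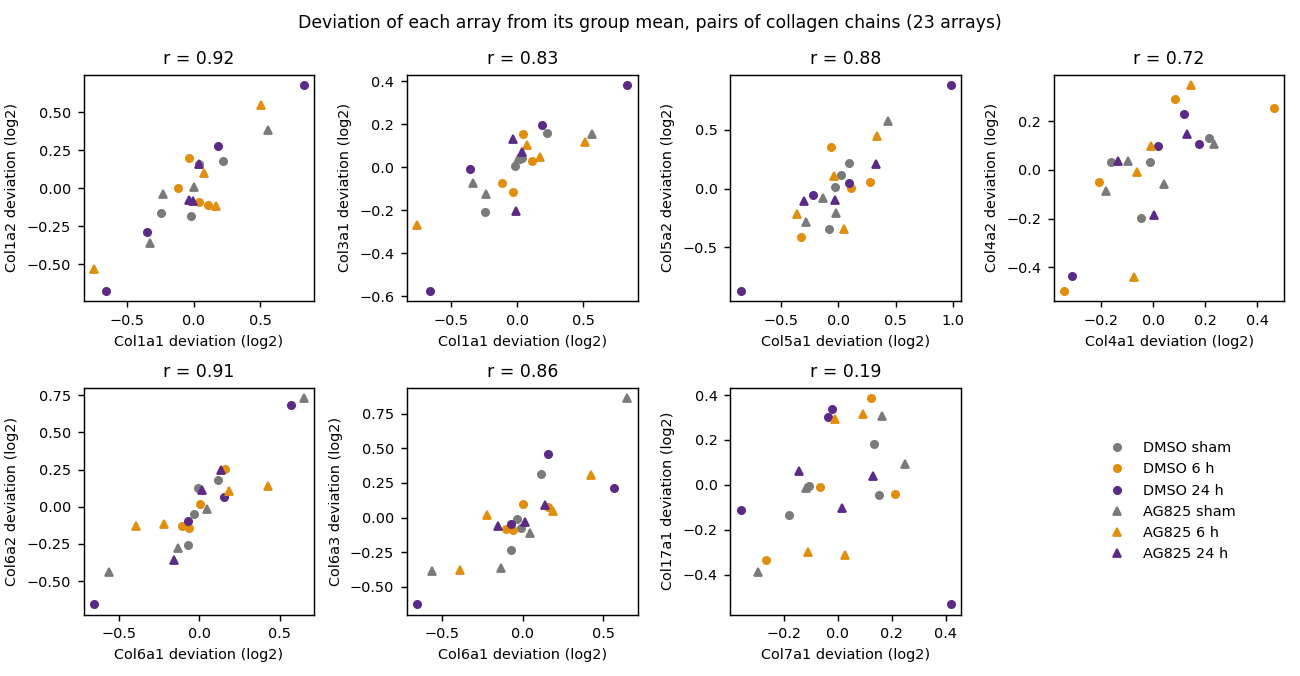
Deviation of each of the 23 arrays from its group mean for 7 pairs of collagen genes (both axes in log2 units; circles DMSO, triangles AG825; grey sham, orange 6 h, purple 24 h), with Pearson's r above each panel. The points of the type V pair lie along a line with DMSO 24 h E and C at its ends, AG825 sham D lies at the upper end of the type VI pairs, and the points of Col7a1 and Col17a1 scatter with r = 0.19.

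Genes that process, bind and degrade collagen were counted in 6 lists chosen with results of these data known. Of 10 collagen-degrading proteases measured, 5 rose in DMSO skin at 6 h and 5 at 24 h, and 1 and 4 in AG825 skin, with a median difference of 0.60 and 0.79 in DMSO skin and 0.30 and 0.59 in AG825 skin. Beside all 6 lists, 7.77% and 4.89% of all probe sets rose in DMSO skin and 1.48% and 3.35% in AG825 skin, with medians of 0.01, -0.03, 0.03 and -0.08. The shares that fell were 10.7% and 3.83% in DMSO skin and 1.26% and 1.49% in AG825 skin. The collagenase Mmp13 rose by 1.40 ± 0.41 at 6 h and 3.53 ± 0.41 at 24 h (limma adjusted p 0.021 and 1.15e-05), and by 1.84 ± 0.45 at 24 h in AG825 skin (adjusted p 0.019). Mmp8, the collagenase of neutrophils, rose by 2.52 ± 0.35 and 2.16 ± 0.35 in DMSO skin and by 1.69 ± 0.35 at 6 h in AG825 skin (adjusted p 5.47e-05, 0.00044 and 0.011). The gelatinase Mmp9 rose by 1.04 ± 0.19 and 1.85 ± 0.19 in DMSO skin, and Mmp2 by 0.91 ± 0.21 and 1.02 ± 0.21. Prep, a prolyl peptidase and the 1 member that fell, was named after its value was seen (-0.57 ± 0.17 at 6 h in DMSO skin, adjusted p 0.027). Leukocyte markers rose in the same skin, 8 of 9 at 6 h and 9 of 9 at 24 h with DMSO and 4 and 6 of 9 with AG825. Their array mean went from 8.18 to 9.06 after DMSO sham to 10.7 to 11.0 at 6 h, and their part in the protease values was not tested.

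Of 9 genes for propeptide cleavage and cross-linking measured, 4 rose at 6 h and 5 at 24 h with DMSO and 1 at each time in AG825 skin. Lox, the lysyl oxidase that cross-links fibrils, rose by 1.78 ± 0.31 and 1.54 ± 0.31 in DMSO skin (adjusted p 0.00043 and 0.0027) and read 1.01 ± 0.31 and 1.09 ± 0.33 in AG825 skin (adjusted p 0.088 and 0.064). Tgm2, a transglutaminase, rose in all 4 comparisons, by 1.48 ± 0.24, 1.33 ± 0.24, 0.97 ± 0.24 and 1.02 ± 0.26. Loxl4 rose by 0.54 ± 0.13 at 6 h and Tll1, a propeptide-cleaving protease, by 0.42 ± 0.10 at 24 h in DMSO skin. Of 16 genes for folding and modification in the endoplasmic reticulum, 3 rose at both times in DMSO skin and none passed in AG825 skin. They were the prolyl hydroxylase subunit P4ha1 (0.68 ± 0.21 and 0.70 ± 0.21) and the lysyl hydroxylases Plod3 (0.52 ± 0.14 and 0.51 ± 0.14) and Plod1 (0.42 ± 0.14 and 0.47 ± 0.14).

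Of 16 collagen-binding matrix proteins, 6 rose at 6 h and 5 at 24 h with DMSO and 0 and 1 in AG825 skin. Tgfbi, a matrix adaptor, rose by 1.28 ± 0.21 and 1.51 ± 0.21 with DMSO and by 1.20 ± 0.22 at 24 h with AG825 (adjusted p 0.00021, 7.31e-05 and 0.0029). Thbs1, a thrombospondin, rose by 1.49 ± 0.36 and 1.73 ± 0.36 in DMSO skin and read 0.16 ± 0.36 and 0.22 ± 0.38 in AG825 skin (adjusted p 0.86 and 0.75). Fn1, fibronectin, and Dpt, dermatopontin, rose at 6 h in DMSO skin, by 1.06 ± 0.26 and 1.25 ± 0.28. Of 6 collagen receptors, Lair1, found on leukocytes, rose by 0.43 ± 0.11 and Ddr1, found on epithelial cells, fell by 0.70 ± 0.23 at 6 h in DMSO skin, and none passed in the other 3 UV comparisons.

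Of 16 genes for TGF-beta ligands, receptors and targets, 3 rose and 2 fell at 6 h in DMSO skin, 3 rose at 24 h, 1 rose at 6 h in AG825 skin, and 2 rose and 1 fell at 24 h. Ccn2, a target that is induced with matrix genes, rose in all 4 comparisons, by 1.46 ± 0.15, 0.98 ± 0.15, 0.98 ± 0.15 and 0.73 ± 0.16. Ltbp2, a latent TGF-beta binding protein family member, rose by 0.59 ± 0.15 and 0.94 ± 0.15 in DMSO skin and by 0.93 ± 0.16 at 24 h in AG825 skin. Tgfbr2, a receptor, rose by 1.09 ± 0.27 and 0.93 ± 0.27 in DMSO skin. The inhibitory Smad6 fell by 1.21 ± 0.28 at 6 h in DMSO skin (adjusted p 0.0038). The other members that fell, Smad7 at 6 h in DMSO skin and Tgfb2 at 24 h in AG825 skin, were named after their values were seen (-0.36 ± 0.12 and -0.56 ± 0.13).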

How the data were processed

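The members and gene lists were chosen with earlier results of these data known. The deposited table used for all main values holds log2 intensities, for which the submitters' processing notes name RMA with no version, of 19645 probe sets on 23 arrays. Signal intensities on a linear scale, with detection calls, were deposited for dChip (23 arrays) and GCOS (22, without DMSO 6 h G), per the file headers; they gave the detection calls and, as log2(signal + 16), alternatives, with each GCOS array first scaled to a common trimmed mean. Gene names came from the platform table.

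A model with 1 mean for each of 6 groups was fitted to all probe sets of the log2 table (limma 3.58.1 in R 4.3.3, lmFit and eBayes, 17 residual and 3.75 prior degrees of freedom). There were 11 two-sided comparisons, each adjusted over all probe sets by Benjamini-Hochberg at 0.05. Single-gene errors are limma standard errors. Signal over background and the number of arrays limit the precision. On simulated data for DMSO 6 h against sham over 19645 probe sets, the fit found 35.8%, 83.6% and 95.5% of changes of 0.5, 1 and 2 log2 units, with 12 false calls. The simulation changed 67, 67 and 66 probe sets by these sizes, with independent normal noise. In the data 18.4% of probe sets passed in that comparison, so these shares describe the simulated setting only.

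Named were every collagen gene that passed, 16 skin collagens fixed whatever their result, and up to 4 genes of each partner list with the smallest adjusted p. Alternatives were dChip and GCOS signal with pseudocounts of 16 and 1, a filter on detection, single comparisons, replicate letter as a block, percent present as a covariate, array weights, the mean of a gene's probe sets, and each array left out; leaving out the 3 arrays of lowest percent present was chosen after seeing the data. Correlations were computed in Python 3.11.15 with numpy 2.4.6.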

Additional observations from a re-analysis of the deposited data

Results flagged for a closer look

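Of 105 groups of 4 arrays of the 21 named collagen genes, 5 had an array far from the others by Dixon's test, close to the 1 in 20 that chance gives. A pair of genes stood above their group on DMSO 24 h E: Col8a1 read 7.96 there against 7.35 to 7.43 on the others, and Col12a1 read 10.43 against 9.16 to 9.28. Col8a1 read 6.58 on DMSO sham C, below the 6.92 to 6.96 of the other sham arrays. Col16a1 read 9.47 on DMSO 6 h C, above the 8.88 to 8.89 of the others, and Col11a1 read 7.89 on DMSO sham B, below 8.55 to 8.68.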

How the results depend on the processing

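The 16 calls were recomputed under 10 alternatives and with each array left out. The count of collagen genes that passed at 6 h in DMSO skin was 5, and became 3 with the replicate letter as a block, 3 with percent present as a covariate and 9 with array weights. At 24 h in DMSO skin it was 7, and 3 on GCOS signal with either pseudocount. At 6 h in AG825 skin it was 3. It became 1 on dChip signal, with array weights, with the mean of a gene's probe sets and without the 3 arrays of lowest percent present, and 0 on GCOS signal with either pseudocount, with only the groups compared and with percent present as a covariate. At 24 h in AG825 skin it was 1. It became 2 on GCOS signal with either pseudocount and with the mean of a gene's probe sets, 3 with the block and without the 3 lowest arrays, and 23 with array weights, where 10 rose and 13 fell and, of all 19645 probe sets, 3528 rose and 5501 fell in place of 659 and 293. Array weights also gave 1 gene for 24 h against 6 h in DMSO skin and 5 in AG825 skin, where the count was 0. Leaving out 1 array gave 4 to 7 genes at 6 h and 3 to 11 at 24 h in DMSO skin, and 0 to 3 and 0 to 2 in AG825 skin. Without DMSO sham A, B or C the 24 h count in DMSO skin was 4, and without DMSO 24 h A it was 3. Col4a6 at 24 h in DMSO skin turned to 0.0753 on dChip signal, and the correlation of Col7a1 with Col17a1 turned to -0.0179 on dChip signal and lay between 0.0561 and 0.651 with 1 array left out. The causes were not tested. The block changed no count of 0, and under it the 6 h calls of Col16a1 and Col4a5 in DMSO skin had adjusted p of 0.055 and 0.15 and that of Col11a1 in AG825 skin 0.070. After group means were removed, 21 of 35 same-letter pairs of arrays had r above 0.1 (median 0.17, range -0.23 to 0.67), against 62 of 185 pairs of other letters (median -0.03). Same-letter pairs were thus closer in the median. No label says what a letter marks, so the main model has no block, and what the letters share was not tested. Signal over background limits the 18 genes not present on every array. On GCOS signal the all-probe-set median lay at up to -0.14 at 6 h in DMSO skin and -0.15 at 24 h in AG825 skin, relative to which its changes are read.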

Other observations

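Col9a1, a fibril-associated collagen chain known from cartilage, was represented by a probe set called absent on all 23 arrays. Its second probe set, of lower mean, was called present on all 23. That probe set read 5.41, 5.38, 5.31 and 5.62 after AG825 sham and 4.97, 5.13 and 5.04 at 24 h, with no overlap, and fell by 0.38 ± 0.09 (limma adjusted p 0.017). In DMSO skin it differed by -0.05 ± 0.08 at 6 h and -0.07 ± 0.08 at 24 h.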
